A study of Mus musculus with 4 samples.

Results

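A set of 10 genes that carry signals between microglia and neurons was followed through single-nucleus RNA sequencing of mouse cortex, chosen by name as the complement genes C1qa, C1qb, C1qc, C3, C4b and Itgam, the pair Cd47 and Sirpa, and the pair Cx3cl1 and Cx3cr1. They were 10 of the 33696 genes in the count matrices, and each symbol occurred there once. Their identifiers in the matrices were ENSMUSG00000036887 for C1qa, ENSMUSG00000036905 for C1qb, ENSMUSG00000036896 for C1qc, ENSMUSG00000024164 for C3, ENSMUSG00000073418 for C4b and ENSMUSG00000030786 for Itgam. For the pairs they were ENSMUSG00000055447 for Cd47, ENSMUSG00000037902 for Sirpa, ENSMUSG00000031778 for Cx3cl1 and ENSMUSG00000052336 for Cx3cr1. The study compared pregnant females, taken at E13.5 (embryonic day of the litter), with non-pregnant females. There were 2 libraries of each. All animals were wildtype females of the C57BL/6JRj strain, about 12 weeks old, and the tissue was microdissected cortex. Nuclei were isolated in the cold with actinomycin D, which blocks transcription. Nothing in the labels pairs the libraries or says more of the animals behind them, so p-values measure the spread between these 4 libraries.

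Complement is a cascade of secreted proteins. C1q, built from A, B and C chains that C1qa, C1qb and C1qc encode, recognises a surface and starts the classical pathway. C4, of which C4b is the mouse gene, and then C3 are cleaved and left on that surface as tags. Microglia, the resident macrophages of the brain, read the C3 tag with complement receptor 3, whose alpha chain is Itgam (CD11b). In the developing mouse brain this cascade takes part in the removal of synapses. CD47 on the surface of a cell binds SIRPA on a phagocyte and restrains engulfment. CX3CL1, or fractalkine, is a chemokine anchored in the membrane of neurons, and its receptor CX3CR1 marks microglia.

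The libraries were of similar size. Pregnant replicates 1 and 2 held 6680 and 6847 barcodes with 107434942 and 101744881 UMIs (unique molecular identifiers, 1 per captured RNA molecule), against 6932 and 6357 barcodes with 97875766 and 116860425 UMIs in non-pregnant replicates 1 and 2. Of these barcodes 25034 were kept as nuclei, and pairs of libraries shared 20 to 31 barcode sequences. Clusters were named after the cell type they resemble by its markers, which gave 16 types. Names of excitatory neurons give the cortical layer and the projection, with IT for intratelencephalic, ET for extratelencephalic, NP for near-projecting and CT for corticothalamic. Excitatory cluster 4 and inhibitory cluster 5 are called by number. In the microglia-like cluster 10 of 10 microglial markers were detected and summed to between 16089 and 17500 CPM, where CPM is the usual depth-scaled count, the UMIs of a gene over all UMIs of the same nuclei times 1e6. Clusters left unnamed held 13.1% and 18.2% of pregnant nuclei, against 3.08% and 2.12% of non-pregnant nuclei, and 4 of them were almost only found in pregnant libraries. One library stood apart in a way that touches Cx3cl1, as given beside that gene.

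Promoters from the RefSeq tables of build GRCm38.p6, an earlier build than that of the counts, were matched for 7 of the 10 genes. C1qa, C4b and Sirpa are named only. Sirpa is on chromosome 2, Itgam on 7, Cx3cl1 on 8, Cx3cr1 on 9, Cd47 on 16, and C3 and C4b on 17. C1qb, C1qc and C1qa lie next to each other on chromosome 4, and the pair below is shown because these neighbours had their highest level in the same cell type. Each run is the 250 bases before the start of the gene on its own strand, chr4:136886201-136886450 (minus strand) for C1qb and chr4:136892915-136893164 (minus strand) for C1qc. The Cx3cr1 run, chr9:120068297-120068546 (minus strand), is shown beside them as that of another gene of the same cells. Capitals mark AGGAAGT, read on either strand, the letters bound by ETS factors such as the microglial PU.1.
C1qb promoter: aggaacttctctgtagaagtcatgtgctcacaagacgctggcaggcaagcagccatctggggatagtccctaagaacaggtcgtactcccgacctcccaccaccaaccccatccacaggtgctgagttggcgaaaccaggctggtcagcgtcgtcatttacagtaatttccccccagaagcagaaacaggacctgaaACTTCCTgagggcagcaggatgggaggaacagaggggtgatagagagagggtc
C1qc promoter: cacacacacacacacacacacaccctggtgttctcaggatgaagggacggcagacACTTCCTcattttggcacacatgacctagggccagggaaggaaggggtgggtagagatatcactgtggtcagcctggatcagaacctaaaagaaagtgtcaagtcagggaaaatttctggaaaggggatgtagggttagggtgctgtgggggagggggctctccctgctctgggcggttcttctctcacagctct
Cx3cr1 promoter: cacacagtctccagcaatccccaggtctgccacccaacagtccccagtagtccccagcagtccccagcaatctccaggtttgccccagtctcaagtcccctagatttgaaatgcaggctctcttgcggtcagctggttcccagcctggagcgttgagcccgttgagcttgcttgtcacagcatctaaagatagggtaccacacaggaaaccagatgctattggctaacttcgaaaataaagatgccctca
The motif began 53 bases before the start of C1qb and 195 bases before the start of C1qc. Neither strand of the Cx3cr1 window held these letters, nor did the window of Itgam, another gene highest in microglia, which is not printed. Of all 32851 promoter windows, 7.686% held the motif, and the matches are a description of letters, not of a bound site.

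The receptor genes Itgam, Cx3cr1 and Sirpa, and the C1q chain genes, had their highest levels in microglia. Itgam was almost confined to them, with 91.2% of all its UMIs in microglial nuclei, which were 3.32% to 5.43% of the nuclei of a library. Microglia held 66.7% of the C1qb UMIs, 62.2% of the C1qc UMIs, 63.7% of the Cx3cr1 UMIs and 48.1% of the C1qa UMIs. In CPM, the microglial level exceeded that of the next cell type without overlap of libraries for C1qa, C1qb, C1qc, Itgam, Cx3cr1 and Sirpa. C1qb averaged 196 ± 14.1 CPM in microglia and C1qc 129 ± 19.7 CPM, while no other type averaged above 3.62 CPM for either gene (SD over the 4 libraries).

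**Figure D1:**
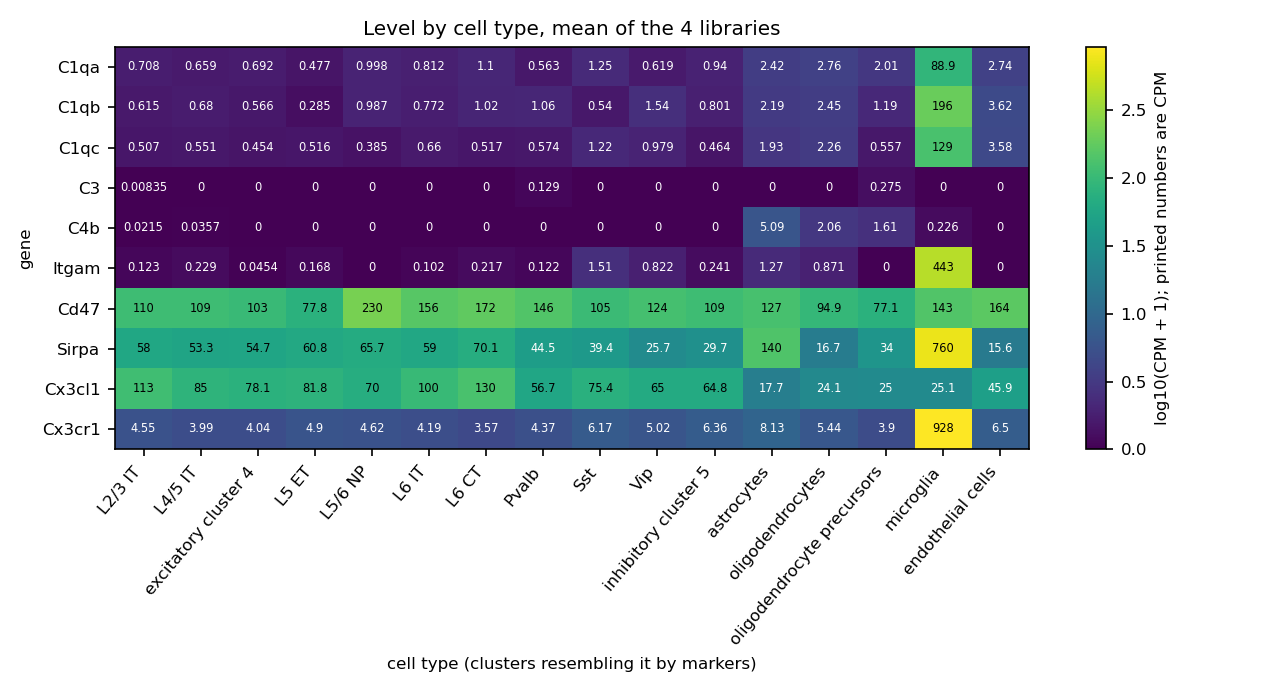
Level of each of the 10 genes (rows) in the 16 cell types (columns), as the mean CPM of the 4 libraries, printed in each field and coloured as log10(CPM + 1). C1qa, C1qb, C1qc, Itgam and Cx3cr1 are bright in the microglia column alone, Sirpa is brightest there with astrocytes next, Cd47 is bright in every column, and Cx3cl1 is highest in the neuron columns.

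The microglial genes also had low counts outside microglia. In excitatory neurons Cx3cr1 stood at 4.11 and 3.89 CPM in pregnant and 4.42 and 4.57 CPM in non-pregnant libraries, which was 0.459% of its microglial level on average. The same percentage was 0.817 for C1qa, 0.322 for C1qb, 0.394 for C1qc and 0.0366 for Itgam. Among microglial marker genes it was 0.0252 for Runx1, 0.0316 for Siglech, 0.0705 for Csf1r and 0.805 for P2ry12. Of the 5 genes, 4 lay between the values of Runx1 and P2ry12, and C1qa lay just above. Cx3cr1 gave 7.62% and 6.87% of pregnant and 6.59% and 9.31% of non-pregnant excitatory nuclei at least 1 UMI, at a median depth of 17024.5, 16334.5, 14620 and 19887 UMIs per nucleus in the same order. When every nucleus was thinned to 2000 UMIs these shares were 0.891% and 0.958% in pregnant and 1.03% and 1.06% in non-pregnant libraries. The number of Cx3cr1 UMIs per C1q UMI in the summed libraries was 2.26 in microglia, 2.32 in excitatory neurons, 1.14 in astrocytes and 0.759 in oligodendrocytes, and single excitatory libraries ranged from 1.79 to 2.86. C1qa made up 38.5% of the C1q UMIs in excitatory neurons, against 21.6% in microglia. Whether free RNA or stray nuclei gave these counts was not tested.

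C3, the central complement component, was near the limit of detection. It had 2 and 1 UMIs in the pregnant libraries and 1 and 0 UMIs in the non-pregnant libraries over all kept nuclei, and 0 UMIs in microglia and astrocytes of every library. Its level in whole libraries was at most 0.0206 CPM, and it passed the filter on low counts in no cell type. Intervals and limits of this kind cover counting error only. C4b had 57 UMIs in all. Astrocytes held 3 and 7 of them in pregnant and 3 and 12 in non-pregnant libraries, and oligodendrocytes 2 and 4 in pregnant and 2 and 9 in non-pregnant libraries. C4b has a near-identical copy, C4a, so its counts are uncertain. At this depth neither gene could show a difference between the groups, and the log2 fold change of C4b over all nuclei was -0.62 (SE 0.534, adjusted p = 0.715 by edgeR).

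The first comparison asked whether the microglial genes differ within microglia between pregnant and non-pregnant cortex. Of the 10 genes, 8 passed the filter on low counts there. By edgeR's quasi-likelihood test on summed counts none of the 8 was called at an adjusted p below 0.05, and none had an unadjusted p below 0.05. Among all 9449 genes tested in microglia, 0.667% were called.

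C1qa, the A chain, had 68.8 and 95.3 CPM in pregnant microglia, against 111.8 and 79.7 CPM in non-pregnant microglia. The B chain gene C1qb had 185.7 and 193.2 CPM in pregnant and 217.0 and 189.3 CPM in non-pregnant microglia. For C1qc, the C chain, the values were 103.2 and 138.5 CPM in pregnant and 148.7 and 125.0 CPM in non-pregnant microglia. The groups overlapped for all chains. Set against non-pregnant microglia, the log2 fold changes were -0.21 (SE 0.212) for C1qa, -0.11 (SE 0.149) for C1qb and -0.17 (SE 0.177) for C1qc, with adjusted p between 0.888 and 0.926 by edgeR.

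Detection of C1q per nucleus was compared next, without a test. At least 1 C1qb UMI was found in 39.6% and 42.1% of pregnant microglial nuclei (exact 95% intervals 32.9 to 46.6 and 35.9 to 48.4) and in 45.0% and 43.0% of non-pregnant nuclei (39.6 to 50.5 and 37.6 to 48.6). Any C1q chain was found in 62.3% and 69.4% of pregnant nuclei and in 72.6% and 69.97% of non-pregnant nuclei. All 3 chains together were found in 2.42% and 5.95% of pregnant and 4.12% and 5.26% of non-pregnant nuclei. Median depth was 2739 and 2962 UMIs per pregnant microglial nucleus and 2613.5 and 3311 UMIs per non-pregnant one. The groups did not overlap for C1qb, nor for any C1q chain, where the pregnant shares were lower, and overlapped for all 3 chains together. C1qa alone was found in 17.9% and 24.6% of pregnant and 25.9% and 24.8% of non-pregnant nuclei, again lower without overlap. C1qc was found in 24.6% and 33.7% of pregnant and 32.4% and 33.4% of non-pregnant nuclei, with overlap. How many of all genes had shares without overlap was not counted. For C1qb the difference, pregnant minus non-pregnant, was -3.18 percentage points, and -1.46 when every nucleus was thinned to 2000 UMIs. Thinned shares overlapped for C1qb (30.9% and 29.7% in pregnant, 33.6% and 29.9% in non-pregnant nuclei). They also overlapped for C1qa (12.0% and 16.3% in pregnant, 19.9% and 14.0% in non-pregnant nuclei). The C1qb share of all C1q UMIs was 51.9% and 45.2% in pregnant microglia and 45.5% and 48.0% in non-pregnant microglia.

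Receptor genes differed little more. Itgam had 435.1 and 420.7 CPM in pregnant microglia, against 437.3 and 480.8 CPM in non-pregnant microglia, with a log2 fold change of -0.13 (SE 0.122, adjusted p = 0.885 by edgeR). Cx3cr1, the fractalkine receptor, had 844.4 and 892.2 CPM in pregnant microglia, against 923.4 and 1050 CPM in non-pregnant microglia, with a log2 fold change of -0.21 (SE 0.115, adjusted p = 0.705 by edgeR). Both pregnant libraries lay below both non-pregnant ones for these genes. The 10 microglial markers summed to 16688 and 16089 CPM in pregnant and 16766 and 17500 CPM in non-pregnant microglia, lower without overlap by a narrow margin. Taken singly, only Runx1 was lower without overlap (936 and 948 CPM in pregnant, 965 and 1060 CPM in non-pregnant microglia). The other markers overlapped, such as P2ry12 (1586 and 1540 CPM in pregnant, 1474 and 1787 CPM in non-pregnant microglia). Some marker lists of other cells summed higher, the 8 of astrocytes to 519 and 452 CPM in pregnant and 447 and 405 CPM in non-pregnant microglia. Those of neurons and erythrocytes are given beside Cd200. Other lists overlapped, such as the 7 of oligodendrocytes (181 and 161 CPM in pregnant, 176 and 148 CPM in non-pregnant microglia). The lists of Vip and of Car3 or claustrum neurons summed lower, that of Vip to 61.9 and 68.6 CPM in pregnant and 81.4 and 73.3 CPM in non-pregnant microglia. The part of these lists in the Itgam and Cx3cr1 values was not tested. Such a lower pair without overlap was seen for 16.5% of all genes tested in microglia, and for 2 of the 8 here. Sirpa, which brakes phagocytosis when it binds CD47, had 782.5 and 793.1 CPM in pregnant microglia, against 751.9 and 713.6 CPM in non-pregnant microglia (log2 0.09, SE 0.114, adjusted p = 0.928 by edgeR). It was the only one of the 8 with both pregnant libraries above both non-pregnant ones, as were 20.4% of all genes. Cd47 in microglia had 137.6 and 144.9 CPM in pregnant and 155.2 and 135.8 CPM in non-pregnant libraries, and its groups overlapped.

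**Figure D2:**
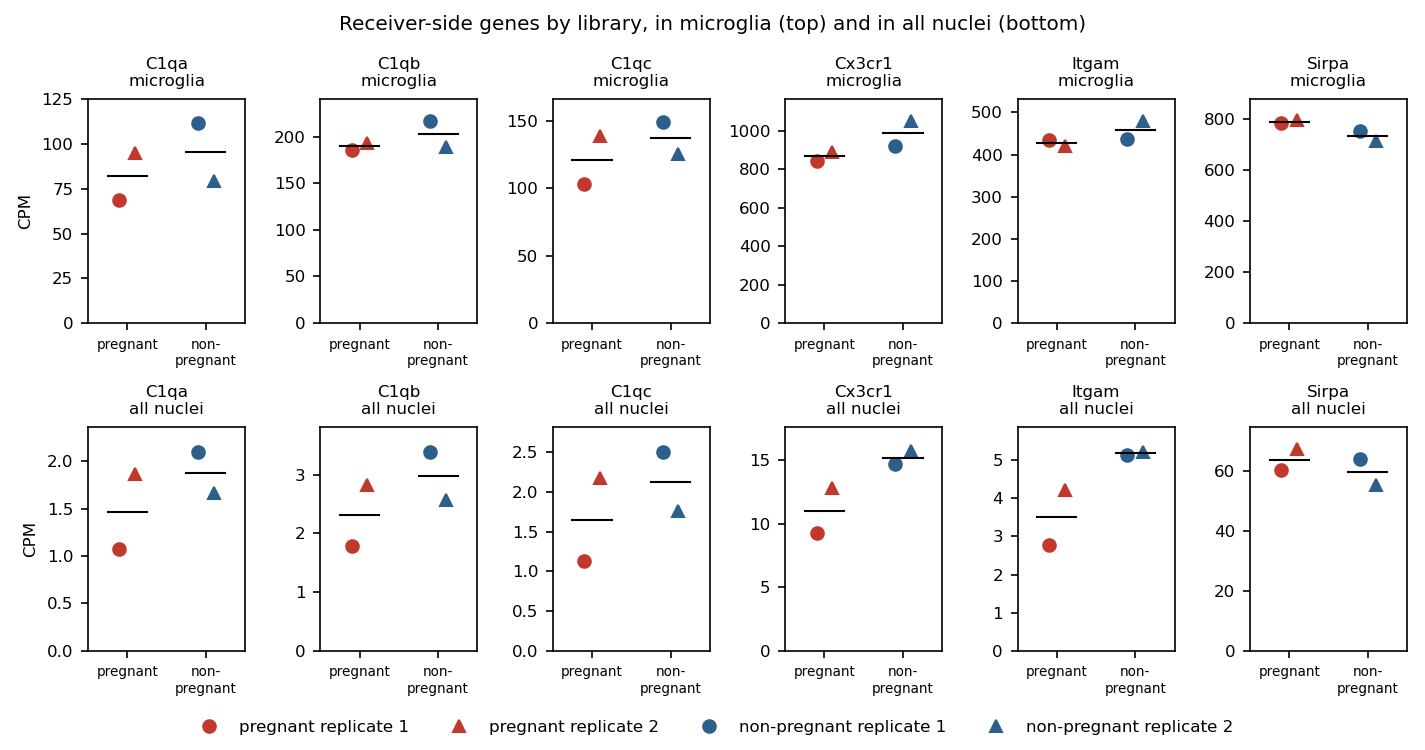
CPM of 6 genes with their highest level in microglia, shown in microglia (top row) and in the sum of all nuclei (bottom row). Each panel has 1 point per library with a bar at the group mean, pregnant at the left and non-pregnant at the right. For Cx3cr1 and Itgam the non-pregnant points lie above the pregnant ones in both rows, with log2 fold changes of -0.48 and -0.59 over all nuclei and -0.21 and -0.13 within microglia.

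Over the whole library the same genes stood further apart. Cx3cr1 had 9.28 and 12.8 CPM over all pregnant nuclei, against 14.7 and 15.7 CPM over all non-pregnant nuclei, a log2 fold change of -0.48 (SE 0.126, unadjusted p = 0.00378, adjusted p = 0.118 by edgeR). Itgam had 2.77 and 4.23 CPM in pregnant and 5.15 and 5.23 CPM in non-pregnant libraries, a log2 fold change of -0.59 (SE 0.173, unadjusted p = 0.00723, adjusted p = 0.162 by edgeR). In both cases the groups did not overlap, which held for these 2 of the 9 genes tested and, in the lower direction, for 16.9% of all genes. None of the 9 was called by edgeR, 2 had an unadjusted p below 0.05, and 1.30% of all 20893 genes were called. The log2 fold changes of C1qa, C1qb and C1qc were -0.38, -0.39 and -0.39, with overlapping groups and adjusted p from 0.524 to 0.699 by edgeR.

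The Cx3cr1 value over all nuclei lay close to the threshold and fell on either side of it under other settings. DESeq2 gave an adjusted p of 0.026, where 3.34% of genes were called. Without a filter on low counts the adjusted p was 0.0407 by edgeR and 2.11% of genes were called. With the replicate number as a block it was 0.027 by edgeR, although the numbers did not pair the libraries. The share of all genes called with that block is not given here. Leaving out non-pregnant replicate 1 gave 6.85e-05 by edgeR, with 9.11% of genes called, and leaving out non-pregnant replicate 2 gave 0.0039, with 6.63% called. Itgam also passed in both, and without non-pregnant replicate 2 C1qb and C1qc passed too, lower in pregnant libraries (log2 -0.58 and -0.63, adjusted p = 0.0438 and 0.0468 by edgeR). Cx3cl1 passed in both with opposite signs. Leaving out a pregnant library moved it away from the threshold: the log2 fold change of Cx3cr1 was -0.31 without pregnant replicate 1 (adjusted p = 0.738 by edgeR) and -0.69 without pregnant replicate 2 (adjusted p = 0.217 by edgeR).

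Microglial nuclei numbered 207 and 252 in pregnant and 340 and 323 in non-pregnant libraries. Their number relative to all kept nuclei had a log2 ratio of -0.55 (SE 0.231, unadjusted p = 0.0236 by edgeR, adjusted p = 0.0573 over 17 types). This was not particular to microglia, since the log2 ratio was -0.52 for L2/3 IT and -0.54 for L4/5 IT neurons. It was 0.009 for L6 IT neurons, 0.75 for astrocytes, 1.42 for endothelial-like and 2.59 for unnamed nuclei. All are shares of the same total, so a rise in some types lowers the others. With equal numbers of nuclei per named type drawn from every library, the log2 fold change over all nuclei was -0.17 for Cx3cr1 and -0.15 for Itgam (adjusted p = 0.696 and 0.855 by edgeR). With all nuclei of named types alone, a setting added after the data were seen, the values were -0.42 and -0.47. In a sum over nuclei, fewer cells of a type and less RNA per cell cannot be told apart, and here the count of nuclei and the level per UMI are given side by side.

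Most transcripts of the ligand genes were counted in neurons, the most numerous nuclei. Excitatory neurons held 83.5% of the Cx3cl1 UMIs and 76.7% of the Cd47 UMIs, and also 72.3% of the Sirpa UMIs. Cx3cl1 was highest in L6 CT neurons, with 129.96 ± 47.2 CPM, then in L2/3 IT (113 ± 30.2) and L6 IT neurons (100.1 ± 37.1; SD over the 4 libraries). It averaged 56.7 CPM in the Pvalb interneurons, the lowest neuron type, and 17.7 CPM in astrocytes, the lowest of all 16 types. Neighbours in this order overlapped throughout.

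Cx3cl1 split the 2 non-pregnant libraries and not the groups. In all excitatory neurons it had 97.9 and 107.3 CPM in pregnant replicates 1 and 2, against 125.7 CPM in non-pregnant replicate 1 and 62.0 CPM in non-pregnant replicate 2. Both pregnant libraries thus lay between the non-pregnant ones, and the log2 fold change was 0.12 (SE 0.464, adjusted p = 0.968 by edgeR). Non-pregnant replicate 2 was the lowest library in 11 of 11 neuron types, and non-pregnant replicate 1 the highest in 10 of 11. In L6 CT neurons the values were 139.4 and 143.8 CPM in pregnant and 173.7 and 63.0 CPM in non-pregnant libraries. In L6 IT neurons they were 97.6 and 116.8 CPM in pregnant and 136.3 and 49.8 CPM in non-pregnant libraries.

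This spread was uncommon among genes. The ratio of non-pregnant replicate 1 to replicate 2 was 2.03 for Cx3cl1 in excitatory neurons, and 80 of 13280 other genes with at least 100 UMIs in each library (0.602%) were at least as far apart. The ratio of the pregnant replicates was 0.912, and 45.0% of genes were at least as far apart. Inhibitory neurons gave a ratio of 1.51 between the non-pregnant libraries, with 1.06% of 8272 genes at least as far apart. For Cd47 in excitatory neurons 45.6% of genes were at least as far apart between the non-pregnant libraries, and for Sirpa 21.9%.

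Among the genes with such a spread were immediate early genes, whose transcription rises within minutes of neuronal activity. A list of 12 was made after this was seen: Arc, Fos, Fosb, Junb, Egr1, Egr2, Egr3, Egr4, Npas4, Nr4a1, Ier2 and Dusp1. It is described here and not tested. In excitatory neurons the 12 genes summed to 327 and 325 CPM in pregnant replicates 1 and 2, against 441 CPM in non-pregnant replicate 1 and 78.9 CPM in non-pregnant replicate 2. Non-pregnant replicate 2 was lowest for 12 of 12 genes there, and non-pregnant replicate 1 highest for 11. Arc, a regulator of synaptic strength, had 37.1 and 36.3 CPM in pregnant libraries, against 61.0 and 3.70 CPM in non-pregnant libraries. The summed list was lowest in non-pregnant replicate 2 in 11 of 11 neuron types, as Cx3cl1 was, and highest in non-pregnant replicate 1 in 9 of 11. In microglia it summed to 158 and 160 CPM in pregnant and 218 and 49.8 CPM in non-pregnant libraries. Non-pregnant replicate 2 was also the deepest library, with a labelled sequencing saturation of 36%, against 26.1% in non-pregnant replicate 1. The part that neuronal activity, tissue handling or depth plays in the Cx3cl1 values was not tested.

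**Figure D3:**
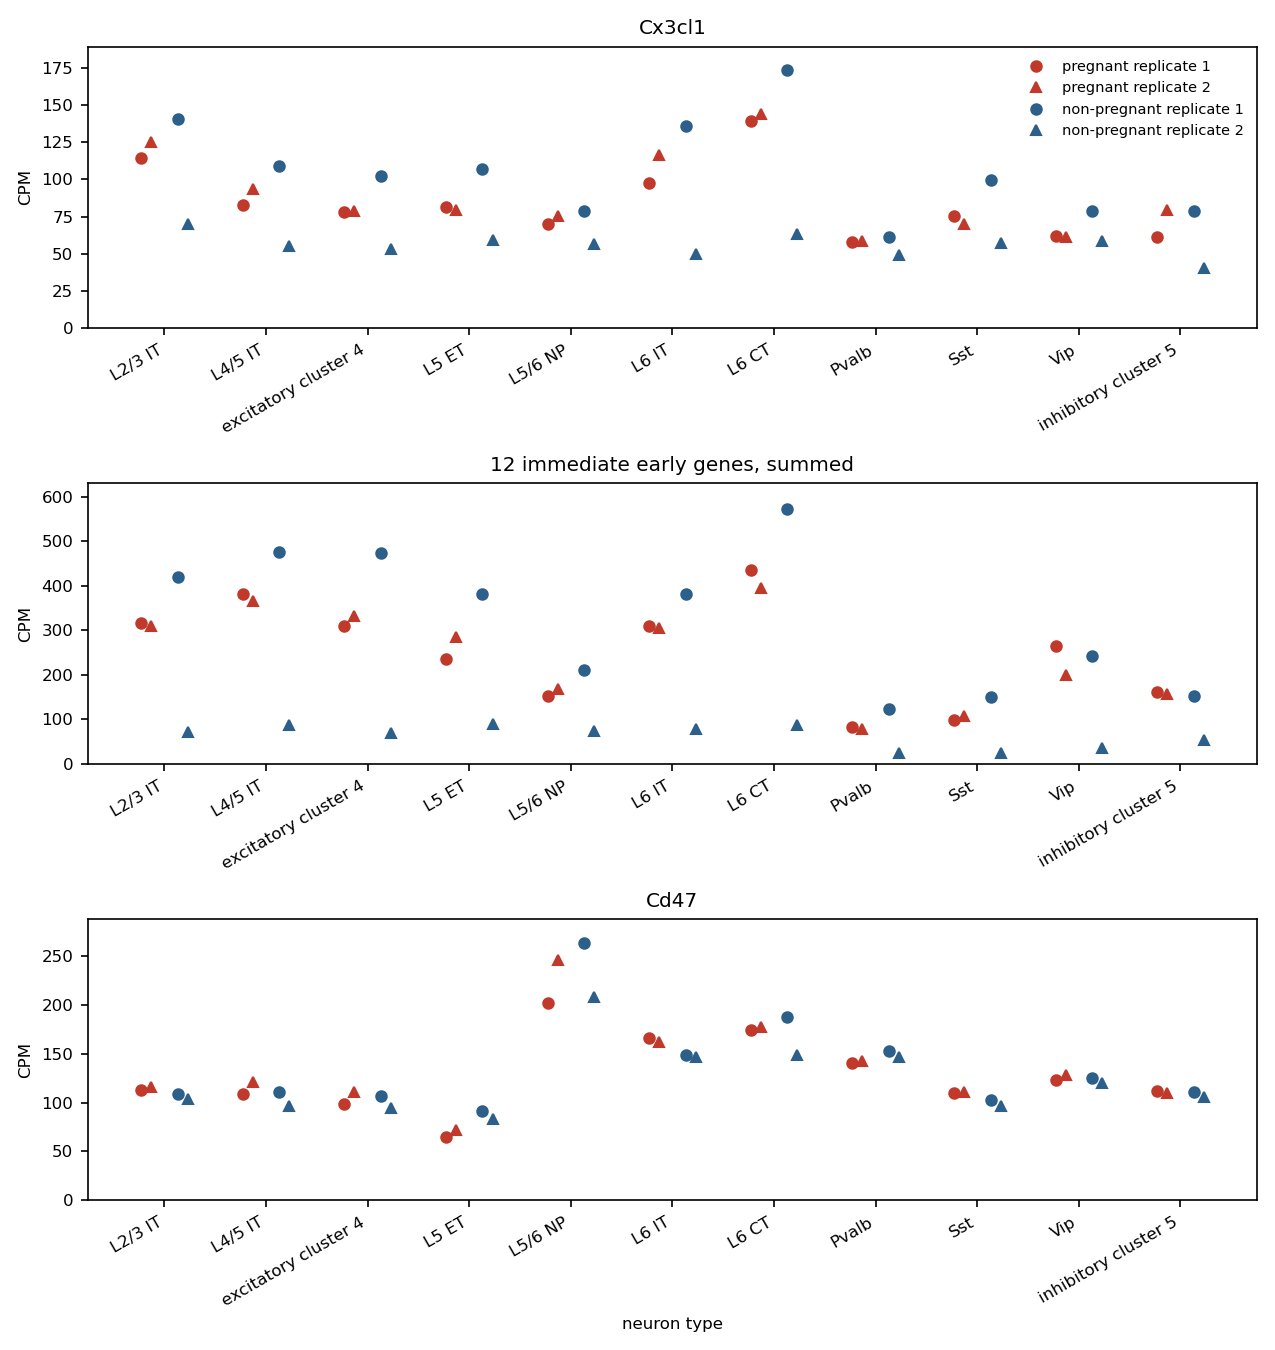
CPM by library in the 11 neuron types for Cx3cl1 (top), for the sum of the 12 immediate early genes (middle) and for Cd47 (bottom), with pregnant points left of non-pregnant points in each type. The non-pregnant replicate 2 triangles lie lowest in every type in the top and middle panels, while in the bottom panel the libraries lie close together and L5/6 NP neurons stand highest.

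A comparison of pregnant with non-pregnant neurons for Cx3cl1 therefore rests on which non-pregnant library is used. Without non-pregnant replicate 1 the log2 fold change in excitatory neurons was 0.71 (adjusted p = 1.55e-11 by edgeR), where 10.5% of all genes were called. Without non-pregnant replicate 2 it was -0.31 (adjusted p = 0.0364 by edgeR), where 6.54% of all genes were called. With both libraries Cx3cl1 was called in no neuron type, where 1.27% of genes were called in all excitatory and 0.309% in all inhibitory neurons. By type the share of genes called by edgeR was 0.0893% in L2/3 IT, 0.0761% in L4/5 IT, 1.48% in excitatory cluster 4, 1.29% in L5/6 NP, 0.603% in L6 IT and 0.949% in L6 CT neurons. Among interneurons it was 0.779% in Pvalb, 0.217% in Sst, 0.123% in Vip and 1.01% in inhibitory cluster 5 cells. None of the 10 genes that could be tested was called in any of these types.

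Cd47, the restraining ligand, was present in every cell type, and its level was not particular to neurons: it averaged 143 CPM in microglia and 127 CPM in astrocytes, against 110.5 CPM in L2/3 IT neurons. It was highest in L5/6 NP neurons, at 230.1 ± 29.9 CPM, without overlap with the next type, L6 CT neurons (172 ± 16.7 CPM; SD over the 4 libraries). The lowest were L5 ET neurons (77.8 ± 12.0 CPM) and oligodendrocyte precursors (77.1 ± 5.25 CPM). At least 1 UMI was found in 82.7% and 83.8% of pregnant and 79.8% and 85.6% of non-pregnant excitatory nuclei. In all excitatory neurons Cd47 had 114.4 and 121.9 CPM in pregnant and 117.0 and 106.7 CPM in non-pregnant libraries, a log2 fold change of 0.07 (SE 0.075, adjusted p = 0.819 by edgeR).

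L5 ET neurons departed from that. Cd47 had 64.4 and 72.1 CPM in pregnant L5 ET neurons, against 91.5 and 83.2 CPM in non-pregnant ones, so both pregnant libraries lay lower. The log2 fold change was -0.32 (SE 0.107, unadjusted p = 0.00512, adjusted p = 0.103 by edgeR), and the gene was not called, while 3.20% of all genes in L5 ET neurons were. Lower pregnant pairs without overlap were frequent there, at 25.7% of genes, and included Cd47 and Cx3cr1 among the 4 genes tested. Sirpa went the other way without overlap, averaging 63.9 CPM in pregnant and 57.7 CPM in non-pregnant L5 ET neurons, as did 2636 of 13813 genes. The difference in log2 fold change between L5 ET and the other excitatory neurons was -0.44 for Cd47 (SE 0.084, adjusted p = 0.00334 by edgeR with the library as a block). This contrast was chosen after the Cd47 values had been seen, and 2.78% of all genes were called in it. Without pregnant replicate 1 it was -0.38 and not called (adjusted p = 0.244 by edgeR). L5 ET nuclei numbered 308 and 262 in pregnant and 209 and 128 in non-pregnant libraries, and their content of other classes' markers differed too. The 7 markers of L5/6 NP neurons summed to 554 and 747 CPM in pregnant L5 ET nuclei, against 270 and 338 CPM in non-pregnant ones, and the 5 markers of L5 ET neurons to 328 and 333 CPM, against 184 and 243 CPM. Other lists went the other way, such as the 6 markers of L6 IT neurons (596 and 500 CPM in pregnant, 675 and 681 CPM in non-pregnant nuclei). Further lists overlapped, among them that of L2/3 IT neurons (110 and 157 CPM in pregnant, 132 and 90.5 CPM in non-pregnant nuclei). The part of these markers in the Cd47 difference was not tested.

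Sirpa, the receptor of CD47, was highest in microglia, at 760.3 ± 35.7 CPM, then in astrocytes, at 140.1 ± 13.0 CPM, and lower in neurons (SD over the 4 libraries). Microglia did not overlap with astrocytes, nor astrocytes with the next type, L6 CT neurons at 70.1 ± 7.75 CPM. In L6 CT neurons Sirpa had 76.7 and 76.1 CPM in pregnant and 67.3 and 60.4 CPM in non-pregnant libraries (log2 0.28, SE 0.107, unadjusted p = 0.0239, adjusted p = 0.352 by edgeR). In Pvalb interneurons it had 46.4 and 50.8 CPM in pregnant and 46.6 and 34.1 CPM in non-pregnant libraries (log2 0.28, unadjusted p = 0.0474, adjusted p = 0.578 by edgeR). Neither was called.

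Excitatory and inhibitory neurons did not differ detectably in the pregnancy effect on the neuronal genes. The difference in log2 fold change, excitatory minus inhibitory, was 0.07 (SE 0.071) for Cd47, -0.06 (SE 0.093) for Sirpa and 0.11 (SE 0.143) for Cx3cl1, with adjusted p from 0.832 to 0.902 by edgeR. In that contrast 1.41% of all genes were called.

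In astrocytes, which border vessels and synapses, 3 of the genes passed the filter and all 3 were higher in both pregnant libraries, as were 20.3% of all astrocyte genes. Cx3cl1 had 17.5 and 26.8 CPM in pregnant and 15.3 and 11.2 CPM in non-pregnant astrocytes (log2 0.74, SE 0.366, unadjusted p = 0.0446, adjusted p = 0.612 by edgeR). In the same astrocyte nuclei 7 endothelial markers, 6 of them with a UMI, summed to 27.6 and 27.5 CPM in pregnant and 5.09 and 2.40 CPM in non-pregnant libraries, and 5 erythrocyte genes to 56.6 and 204 CPM in pregnant and 7.64 and 7.99 CPM in non-pregnant libraries. Other lists went the other way, such as 8 markers of mural cells (142 and 144 CPM in pregnant, 172 and 157 CPM in non-pregnant libraries) and those of oligodendrocyte precursors. Endothelial-like nuclei averaged 45.9 CPM of Cx3cl1. The part of these cells in the astrocyte values was not tested. The Cx3cl1 levels rest on 26 and 38 UMIs in pregnant and 12 and 14 UMIs in non-pregnant libraries. Cd47 had 141.5 and 133.2 CPM in pregnant and 110.7 and 120.7 CPM in non-pregnant astrocytes, and Sirpa 140.2 and 157.8 CPM in pregnant and 127.3 and 135.1 CPM in non-pregnant astrocytes. None of the 3 was called, while 0.539% of astrocyte genes were. In oligodendrocytes and their precursors, where 0.0841% and 0.169% of genes were called, none of these genes was called either.

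Over all units, 89 tests of a gene in a cell type, class or whole library were made, 66 of them in single cell types. None passed an adjusted p of 0.05 by edgeR. An unadjusted p below 0.05 was found in 6, namely Itgam and Cx3cr1 over all nuclei, Cd47 in L5 ET, Sirpa in L6 CT and Pvalb neurons and Cx3cl1 in astrocytes. Between 6.02% and 15.2% of all genes had such a p in the units tested. DESeq2 called 1, Cx3cr1 over all nuclei.

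**Figure D4:**
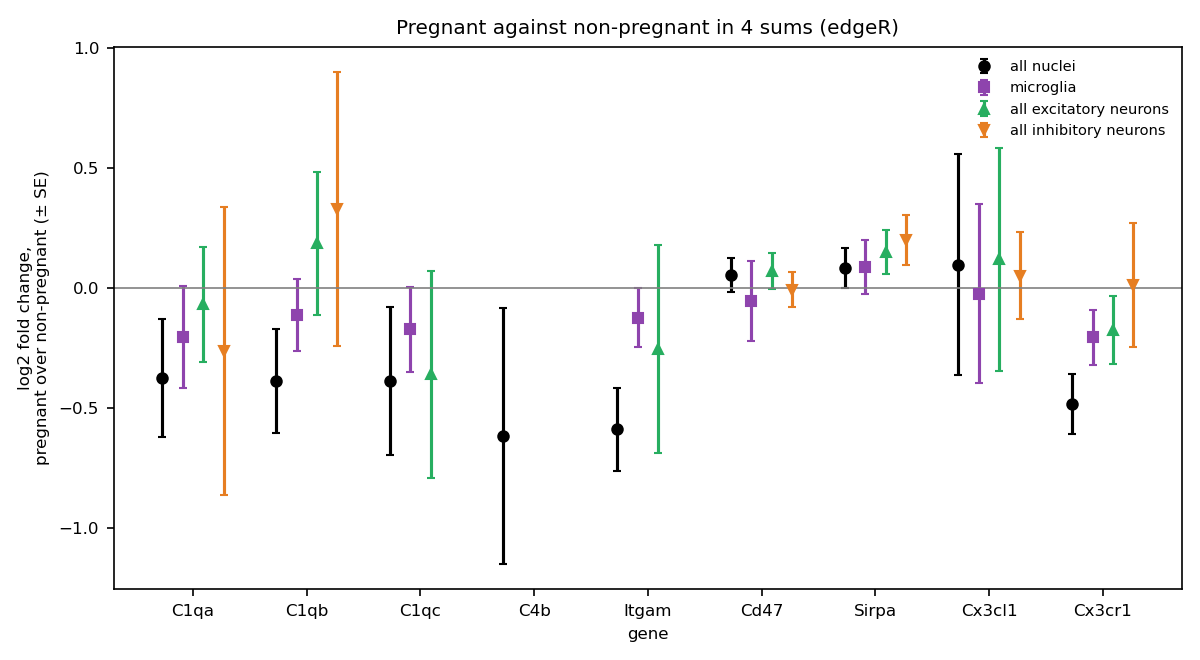
Difference between pregnant and non-pregnant libraries on the log2 scale (points), with its standard error by edgeR (bars), for the 9 genes tested in any of 4 sums, namely all nuclei, microglia, all excitatory and all inhibitory neurons. Itgam, Cx3cr1 and the C1q genes lie lower over all nuclei than within microglia, and Cx3cl1 has a wide error in all nuclei and excitatory neurons.

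The wider pathway was followed in 8 lists with 102 genes, all of them in the files. In microglia 49 of the 102 were tested, of which 1 rose and 0 fell. None of the 20 genes of the classical, lectin, alternative and terminal pathway lists reached the filter in microglia, while the C1q chain genes did. The receptor list gave 6 tested genes with a median log2 fold change of -0.06, against 0.001 over all microglial genes, with 0 called. Among them the C5a receptor gene C5ar2 had the smallest p (log2 -0.38, adjusted p = 0.856 by edgeR). Itgb2, the partner chain of Itgam, had 29.2 and 40.7 CPM in pregnant and 32.6 and 43.5 CPM in non-pregnant microglia. Of complement regulators, 7 were tested and 0 called. The smallest p among them was that of Csmd1 (log2 0.55, adjusted p = 0.406 by edgeR).

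The gene that rose in microglia was Cd200, known as a neuronal ligand that quiets microglia through its receptor. It had 29.2 and 33.0 CPM in pregnant and 8.68 and 9.06 CPM in non-pregnant microglia (log2 1.78, SE 0.42, adjusted p = 0.0212 by edgeR), from 17 and 26 UMIs in pregnant and 8 and 10 UMIs in non-pregnant libraries. The log2 fold change stayed between 1.69 and 1.84 under all 11 alternatives, while the call was lost with DESeq2, without non-pregnant replicate 2 and without either pregnant replicate. Some marker lists of other cells moved with it, while others overlapped or were lower, as given beside Itgam and Cx3cr1. The 4 excitatory neuron markers summed to 482 and 463 CPM in pregnant microglial nuclei, against 378 and 254 CPM in non-pregnant ones. The 4 inhibitory neuron markers summed to 51.6 and 64.8 CPM in pregnant and 34.7 and 19.0 CPM in non-pregnant microglia, and 5 erythrocyte genes to 92.9 and 89.0 CPM in pregnant and 20.6 and 9.06 CPM in non-pregnant microglia. The part of these cells in the Cd200 counts was not tested.

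Over all nuclei 87 of the 102 genes were tested, and 1 rose. This was Vtn, which encodes vitronectin, an inhibitor of the terminal pathway that vessel-associated cells express, at 1.29 and 1.45 CPM in pregnant and 0.624 and 0.736 CPM in non-pregnant libraries (log2 0.99, SE 0.198, adjusted p = 0.0469 by edgeR). With equal numbers of nuclei per type its log2 fold change was -0.01, and endothelial-like nuclei numbered 74 and 56 in pregnant and 27 and 21 in non-pregnant libraries. The call was also lost with DESeq2, without either pregnant replicate and without the doublet filter. The list of other microglial receptors had a median log2 fold change of -0.40 over all nuclei, against 0.006 over all genes, and of -0.08 within microglia, with 0 of 19 and 0 of 18 tested genes called. Its smallest p over all nuclei was that of P2ry12, a receptor for ADP that microglia use to sense injury (log2 -0.37, adjusted p = 0.077 by edgeR).

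In excitatory neurons 72 of the 102 genes were tested and 1 rose. Pros1, which encodes protein S, a ligand of the engulfment receptors TYRO3 and MERTK, had 10.5 and 10.7 CPM in pregnant and 7.03 and 6.55 CPM in non-pregnant neurons (log2 0.63, SE 0.114, adjusted p = 0.0352 by edgeR). This call was lost without either pregnant replicate, with finer clusters and without cluster 2, which held no nuclei of non-pregnant replicate 2, with log2 fold changes of 0.40 to 0.69 over its alternatives. In L5 ET neurons 40 genes were tested. Itga4, an integrin chain, rose (log2 0.64), and Tgfbr1, a receptor of TGF-beta, and Sez6, a synaptic relative of complement regulators, fell by 0.69 and 0.46 on the log2 scale, with adjusted p of 0.0385, 0.00157 and 0.0229 by edgeR. DESeq2 called none of these 3. The Sez6 call was also lost without either pregnant replicate, and the Itga4 call without either pregnant replicate, without non-pregnant replicate 2, without the doublet filter and with finer clusters. Over the alternatives the log2 fold changes in L5 ET neurons ran from -0.48 to -0.42 for Sez6, 0.41 to 0.96 for Itga4 and -0.79 to -0.58 for Tgfbr1. Tgfbr1 also fell in L5/6 NP neurons (log2 -0.88, adjusted p = 0.0388 by edgeR), a call lost without non-pregnant replicate 2, without pregnant replicate 1 and with the replicate block, at log2 fold changes of -1.24 to -0.61. Itga4 also rose in excitatory cluster 4 (log2 1.25, adjusted p = 0.00148 by edgeR), a call lost without pregnant replicate 1. In astrocytes 31 genes were tested and Csmd1, a membrane protein that inhibits complement, rose (log2 0.58, adjusted p = 0.0342 by edgeR), with 257 and 207 CPM in pregnant and 125 and 173 CPM in non-pregnant libraries. That call was lost with DESeq2, without non-pregnant replicate 1, without pregnant replicate 1 and without the doublet filter, at log2 fold changes of 0.37 to 0.90.

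The genes most like each of the 10 in their pattern over the 16 cell types were found by Pearson's r of log2(CPM + 1), given as a description, since the types share libraries. For Cx3cr1 these were Myo1f (r = 0.997), Fermt3 and Csf3r, and for Itgam they were Fcgr3 (r = 0.996), Slc11a1 and Crybb1. Among the genes most like C1qb were Cd48 (r = 0.987) and C1qc, and C1qc was most like Cd48 (r = 0.988), Tmem273 and C1qb. C1qa had Fam91a1 (r = 0.987), Cyth4 and Laptm5. On the neuronal side Cx3cl1 was most like Dmtn (r = 0.98), Rasgef1a and Celf5, while Cd47 had no close match, with Rae1 (r = 0.77), Cpsf1 and Cmtr1 leading. Sirpa was most like Phyhd1 (r = 0.934), Ropn1l and Lair1, and C4b like Arhgef19 (r = 0.986), Garem2 and Myh6. C3 was too low for this measure. Over the types r was -0.431 between Cx3cl1 and its receptor gene Cx3cr1, and 0.213 between Cd47 and its receptor gene Sirpa.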

How the data were processed

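Single-nucleus 3' libraries (10x) of mouse cortex were deposited as matrices of whole-number UMI counts for 33696 genes. Per the submitters' processing notes, Cell Ranger 10.0.0 and the build GRCm39 were used; the deposited counts carry no normalization. The authors' cell calling set the barcodes.

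Barcodes with at least 500 genes and at most 5% mitochondrial UMIs were kept, 26350 of 26816. Doublets were scored against simulated ones (2 per nucleus, 60 neighbours) and the top 5% of each library left out, so doublets may remain. No correction for free RNA was made. For clustering, each nucleus was scaled to 10000 UMIs, and 2000 variable genes without the 10 studied here gave 40 principal components, 20 neighbours and Leiden clusters at resolution 1 (34 clusters, scanpy 1.11.5). Names came from 31 marker lists and needed a score of 0.6 and 3 detected markers. Clusters stayed unnamed with over 35% doublets, under 50 nuclei, a median below 2000 UMIs, or a share below 0.2% in both libraries of a group. These thresholds were set after the clusters were seen.

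UMIs were summed per library and type, where each library held at least 50 nuclei of the type, and tested in R 4.3.3 with edgeR 4.0.16 (quasi-likelihood, robust, TMM, filterByExpr with minimum count 10). Benjamini-Hochberg adjustment ran over all genes tested in a unit, with 0.05 as threshold. The SE of a log2 fold change is its size over the root of the quasi-likelihood F. Alternatives were DESeq2 1.42.0 (adjusted p it gave as NA stayed NA), RLE size factors, no filter, the replicate block, each library left out, no doublet filter, resolution 2, equal nuclei per type, and microglia without nuclei holding 2 macrophage markers. Tests were tried on simulated counts. Settings for named types only, for cluster 2 and the L5 ET contrast were added after the data were seen. Same-numbered libraries did not deviate together (correlation -0.020 over all nuclei, -0.042 in microglia), so numbers were not used as pairs. With 2 libraries a group, an exact permutation test of 1 value cannot reach 0.05, and the calls rest on edgeR's spread shared across genes.

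The 10 genes and the lists were chosen with earlier results of these data known. Named are the 10 genes, the 3 genes most like each (at least 5 CPM in 1 type), and from each list the called members, otherwise the one with the smallest p in the units described; Itgb2 and the immediate early genes were added after their values were seen. Some genes that this rule names are not reported here.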

Additional observations from a re-analysis of the deposited data

Results flagged for a closer look

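The pregnancy effect on Cd47 differed between L5 ET neurons and the other excitatory neurons by -0.44 on the log2 scale (SE 0.084, adjusted p = 0.00334 by edgeR), which brought it here as a difference between cell types in a contrast chosen after the values were seen. Leaving out each library in turn gave -0.47 to -0.38, and the call was lost without pregnant replicate 1 (-0.38, adjusted p = 0.244 by edgeR). Within L5 ET neurons alone Cd47 did not pass the threshold (log2 -0.32, adjusted p = 0.103 by edgeR).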

How the results depend on the processing

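Of 190 counts of called genes over the settings tried, 175 were within the margin of the reported count, and of 374 log2 fold changes 354 stayed on their side of the threshold, 15 passed it, 1 lost it and 4, all of Cx3cl1, took the other sign as a called value. Some values that were not called also changed sign, such as C1qa in microglia (-0.47 to 0.01 over its alternatives) and C4b over all nuclei (-1.26 to 0.17). The number called over all nuclei, reported as 0, was 1 without the filter on low counts, 1 with DESeq2 and 1 with the replicate block, each time Cx3cr1. The block, in which the numbers did not pair the libraries, changed no other count of called genes among the 10. Counts also moved with 1 library left out, a fit that leaves 1 library in a group. They did so over all nuclei, in all excitatory neurons and in L2/3 IT, L4/5 IT and L5 ET neurons. L6 CT, L6 IT, excitatory cluster 4 and inhibitory cluster 5 moved as well. The share of all genes called in such fits is given above for all nuclei and excitatory neurons, and not for single types. With each library left out in turn, the log2 fold change of Cx3cl1 ran from -0.32 to 0.67 over all nuclei, -0.31 to 0.71 in excitatory neurons, -0.32 to 0.64 in L4/5 IT and -0.36 to 0.46 in L5 ET neurons, where its sign, near 0 with all libraries, differed in 5 of 10 alternatives. The share of microglia with C1qb, pregnant minus non-pregnant, was -3.18 percentage points and moved to -1.46 with 2000 UMIs per nucleus. No microglial nucleus held 2 macrophage markers, so leaving such nuclei out changed nothing. C3 and C4b were limited by depth, as were C1q levels outside microglia. With 2 libraries a group, the sign of the Cx3cl1 change over all nuclei and in excitatory neurons depended on which non-pregnant library was kept.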
